A study of Mus musculus with 10 samples.

Results

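The imprinted genes Nnat, Dlk1, Peg3, Ndn, Snrpn, Mest, H19, Cdkn1c and Grb10 were followed across 5 tissues of adult female C57BL/6 mice. They were taken as every probe set, on either of 2 Affymetrix mouse chips (A and B), whose annotation gave a single gene symbol and that symbol was one of the 9. All 9 genes were found, of 6137 genes on the chips, through 13 of the 7542 probe sets with 1 gene. With the probe sets of several genes or none, 13057 were measured after controls were left out. The tissues were hypothalamus, adipose, muscle, pancreas and liver, each with 1 array on each chip, so 10 arrays in total. There were no replicates, and no p-value is given. All tissues came from adult mice of that 1 strain and sex per the labels, which name no treatment, and nothing in the labels says whether animals were pooled. The adipose-labelled sample has white adipose tissue as its source but a title that speaks of preconfluent material, a term used of cultured cells, and it is called adipose in the text and adipose-labelled in the plots.

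An imprinted gene is read from only 1 of its parental copies, because a mark set in the egg or sperm, usually DNA methylation at CpG dinucleotides, keeps the other copy silent. Nnat, Dlk1, Peg3, Ndn, Snrpn and Mest are read from the paternal copy. H19 and Cdkn1c are read from the maternal copy, as is Grb10 in most tissues, although neurons read its paternal copy. Several of these genes are strongly expressed in the embryo and placenta and shut down after birth, while some stay on in the adult brain. The arrays measured total RNA and cannot tell the parental copies apart.

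The start regions of Nnat, Peg3, Ndn and Snrpn, the 4 genes furthest above the noise in hypothalamus, are shown because the CpG dinucleotides in them are where an imprinting mark can lie. Sequences are from RefSeq (GRCm38.p6), 250 bases before to 50 after an annotated transcript start, written 5' to 3' on the gene's strand with each CpG in capitals. Windows were found for 7 of the 9 genes, and H19 and Cdkn1c have none here. The Nnat window is chr2:157559828-157560127 on the plus strand, the Peg3 window chr7:6730370-6730669 on the minus strand, and the Ndn window chr7:62348027-62348326 on the plus strand. The Snrpn window is chr7:60005150-60005449 on the minus strand, the one with the most CpG of the 4 starts annotated for that gene.
Nnat: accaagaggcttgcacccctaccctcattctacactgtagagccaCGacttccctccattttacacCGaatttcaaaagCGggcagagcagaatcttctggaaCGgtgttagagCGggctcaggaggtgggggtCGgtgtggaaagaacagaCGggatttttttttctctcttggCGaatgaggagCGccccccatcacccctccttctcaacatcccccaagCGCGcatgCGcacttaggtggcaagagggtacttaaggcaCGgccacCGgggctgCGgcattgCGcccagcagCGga
Peg3: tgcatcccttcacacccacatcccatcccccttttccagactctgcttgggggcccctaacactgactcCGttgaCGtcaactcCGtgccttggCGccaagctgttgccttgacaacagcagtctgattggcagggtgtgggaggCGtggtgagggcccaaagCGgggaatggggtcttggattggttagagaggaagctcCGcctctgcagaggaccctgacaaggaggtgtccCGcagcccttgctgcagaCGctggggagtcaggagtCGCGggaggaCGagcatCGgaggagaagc
Ndn: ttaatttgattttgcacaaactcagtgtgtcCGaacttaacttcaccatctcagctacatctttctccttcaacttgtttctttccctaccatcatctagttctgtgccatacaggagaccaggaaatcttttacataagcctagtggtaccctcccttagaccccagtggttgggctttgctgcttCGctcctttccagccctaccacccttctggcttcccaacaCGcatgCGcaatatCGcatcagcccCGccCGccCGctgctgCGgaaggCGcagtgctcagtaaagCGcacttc
Snrpn: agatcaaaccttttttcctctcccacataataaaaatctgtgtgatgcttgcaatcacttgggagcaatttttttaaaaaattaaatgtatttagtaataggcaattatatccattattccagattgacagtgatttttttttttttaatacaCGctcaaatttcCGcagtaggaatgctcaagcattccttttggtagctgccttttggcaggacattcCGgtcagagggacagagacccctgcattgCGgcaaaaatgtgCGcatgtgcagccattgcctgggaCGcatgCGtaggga

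These windows held 17 CpG in Nnat, 13 in Peg3, 11 in Ndn and 7 in Snrpn, against a median of 7 (quartiles 3 and 20) over 32851 mouse promoters of the same length. The other 3 Snrpn windows held 2, 3 and 4 CpG. Dlk1 had 9, the 3 Mest windows had 8, 17 and 17, and the 2 Grb10 windows had 45 and 9. The letters CGCATGCG, the core of the motif of the transcription factor NRF1 and the same on both strands, occurred in 6 of the 13 windows. Those were the Nnat, Ndn and all 4 Snrpn windows, so 3 of 7 genes, while 1.87% of all promoters held these letters. The 3 Snrpn windows not printed share long stretches of sequence, so the 6 windows are not independent. The core began 25 bases before the start in Nnat, 23 before it in Ndn and 36 after it in the Snrpn window printed above, where it reads CGcatgCG. This motif was chosen after the sequences had been seen, and it is a description of the letters only. The GC box GGGCGG was in the Ndn window, CCAAT and the cAMP response core TGACG were in the Peg3 window, and the Nnat and the printed Snrpn window held none of these. Of the windows not printed, the GC box was in all 3 of Mest and 1 of Grb10, TGACG was in Dlk1 and the other of Grb10, and CCAAT and the TATA box TATAAA were each in 1 of Snrpn. On either strand, 35.7% of all promoters held the GC box, 37.4% held CCAAT, 20.8% held TGACG and 13.6% held the TATA box.

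The measured values are linear intensities in arbitrary units, and between 17.0% and 39.0% of an array's values are below 0. Each array was given a noise bound, the size of its 1st percentile after scaling, and a probe set counted as above background where its value exceeded the bound of its own array. In chip A the bounds were 258.2 in hypothalamus, 390.1 in adipose, 1065 in muscle, 1166 in pancreas and 295.3 in liver. In chip B they were 649.5, 918.3, 1639.5, 2608 and 791.9 in the same order. A fold is given as "at least" where the bound, not a measured value, set the lower side, and none is given where the bound was higher than the value. A probe set was called at 4-fold for a tissue where it was above its own bound and at least 4 times the highest value or bound of the other 4 tissues. The number of arrays limits the precision of all of this. The only repeat was 76 probe sets present on both chips, of which 13 to 18 per tissue were above bound on both. Their B over A ratios spread with an SD of 0.20 to 0.39 on the log2 scale. The median was itself 0.44 to 0.77, depending on the tissue. The 76 were sought among all probe sets with controls included, so this spread need not be that of gene probe sets.

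The tissue labels were checked against marker lists. Of the neuron markers 9 of 10 were above the bound in hypothalamus and 5 were called there, with Sncb at 7636 and the neuropeptides Oxt and Avp at 11298 and 10766. All 8 muscle markers were called in muscle, all 8 liver markers in liver and all 5 acinar markers in pancreas. Of the islet markers, 2 of 9 were above bound in pancreas, and Ins2 was called. In adipose, 7 of 7 white adipocyte markers were above the bound and 5 were called, beside 9 of 10 preadipocyte and fibroblast markers and 4 of 5 macrophage markers. None of 6 pituitary markers was above its bound in any tissue, and Cdk1 was the only one of 7 cell division markers above it, in adipose and muscle.

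The 9 genes fell into 3 patterns. Of the 6 genes read from the paternal copy 5 were above background in hypothalamus by at least 1 probe set, where 31.0% of all probe sets were. Of the 3 read from the maternal copy 1, H19, was high in muscle, and 1 of its 2 probe sets also just passed in hypothalamus. The other 3 genes, Mest, Cdkn1c and Grb10, were above background nowhere. In hypothalamus 6 of 13 probe sets (Nnat, Dlk1, Peg3, Ndn, Snrpn and H19) exceeded the bound, against 31.0% of all 13057 probe sets. Among probe sets with 1 gene, the member itself left out, 2417 of 5541 on chip A and 557 of 2001 on chip B did. The 6 of 13 is thus not far from the background. In adipose 3 exceeded the bound (Nnat, Peg3 and Ndn), against 24.8% of all probe sets. In muscle 2 did, both of H19, against 13.9%, so the adipose and muscle shares are near the background too. None did in pancreas, where 11.9% of all probe sets exceeded the bound, or in liver, where 25.7% did. At 4-fold, 3 probe sets were called for hypothalamus (Peg3, Ndn and Snrpn) against 0.360% of all, and 2 for muscle (both H19) against 0.751%. None was called for adipose, pancreas or liver, where 0.245%, 0.697% and 0.973% of all probe sets were called. A median log2 value minus the mean of the other 4 tissues was taken, with values floored near the array medians. Over the 7 probe sets of the 6 paternally read genes it was 4.24 in hypothalamus, beside -0.01 over all named probe sets. For the same probe sets it was 0.15 in adipose, -0.95 in muscle, -0.46 in pancreas and -1.83 in liver. None of them was above its bound in muscle, pancreas or liver. Each tissue is set against the mean of the others, so high values in hypothalamus lower the differences of the rest. The negative medians are thus not a separate result. For the 6 probe sets of the maternally read genes the median was 0.51 in muscle and -0.13 in adipose and pancreas. In hypothalamus and liver it was -0.39 for these. The floors lie below the noise bounds, so values not above background enter all of these medians. The 0.51 in muscle rests on such values, among them 249 for Grb10, 0.152 of its bound, and not on H19. The split by parental copy was not tested. Over all 9 genes the median was -0.19 in muscle, -0.26 in pancreas and -0.91 in liver, beside 0, 0 and -0.14 over all named probe sets. It was 0 in hypothalamus and adipose, and the same limits hold. With the tissues in order of value, the highest tissue differed from the next by more than the larger of their bounds for Nnat, Peg3 on chip A, Ndn, Snrpn and both H19 probe sets. Adipose differed from the next tissue only for Nnat, and no other neighbours in the order were told apart.

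**Figure D1:**
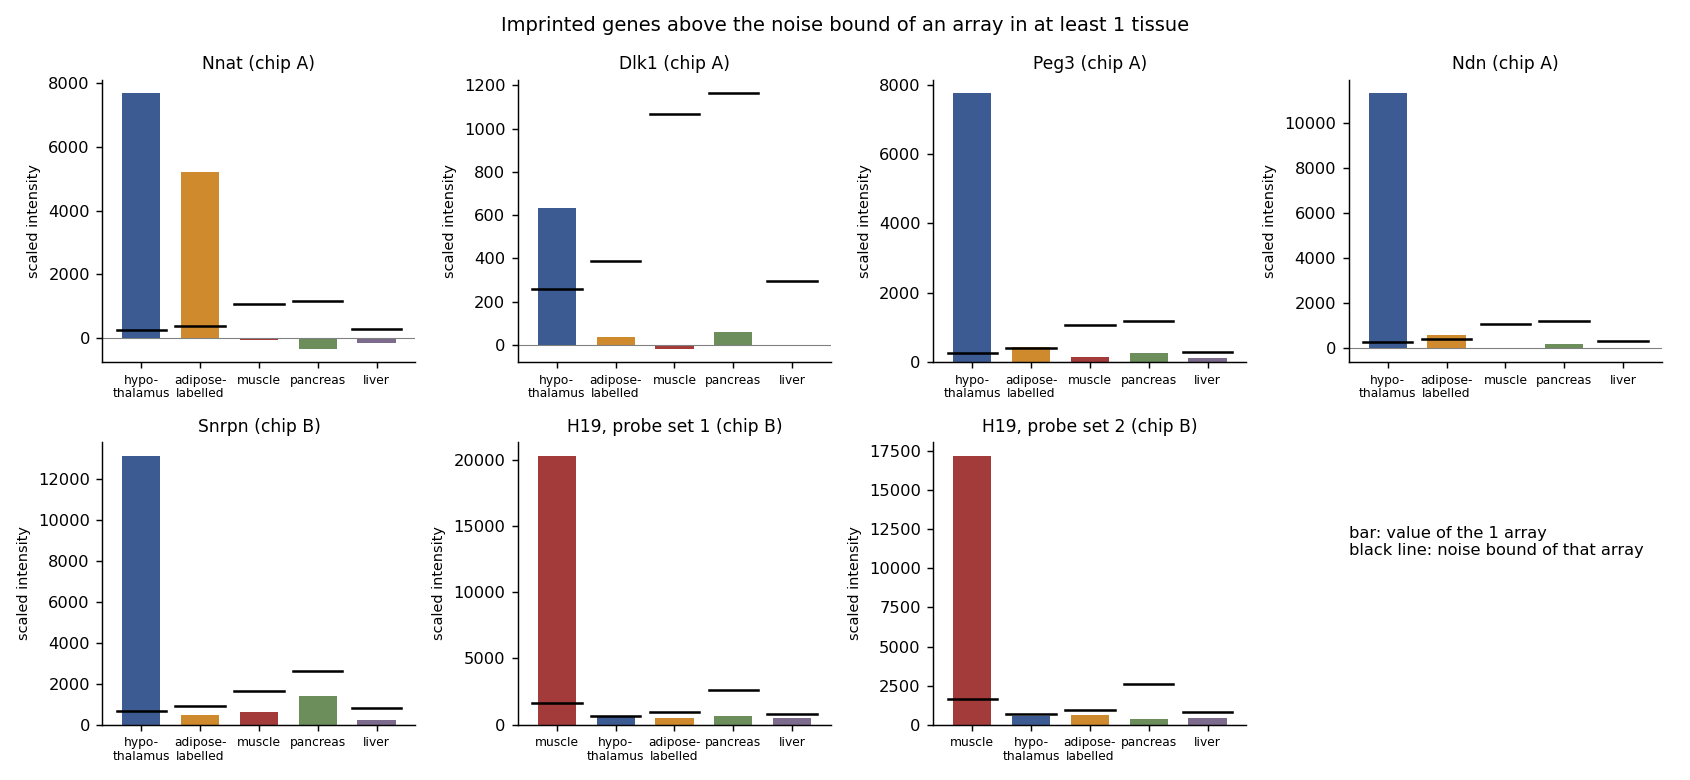
Scaled intensity (y axis, arbitrary units) of the 7 probe sets above the bound in some tissue, 1 panel each; a bar is the value of 1 array and a black line that array's noise bound. Nnat, Peg3, Ndn and Snrpn stand far above the line in hypothalamus, Nnat in adipose too, and both H19 probe sets in muscle.

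**Figure D2:**
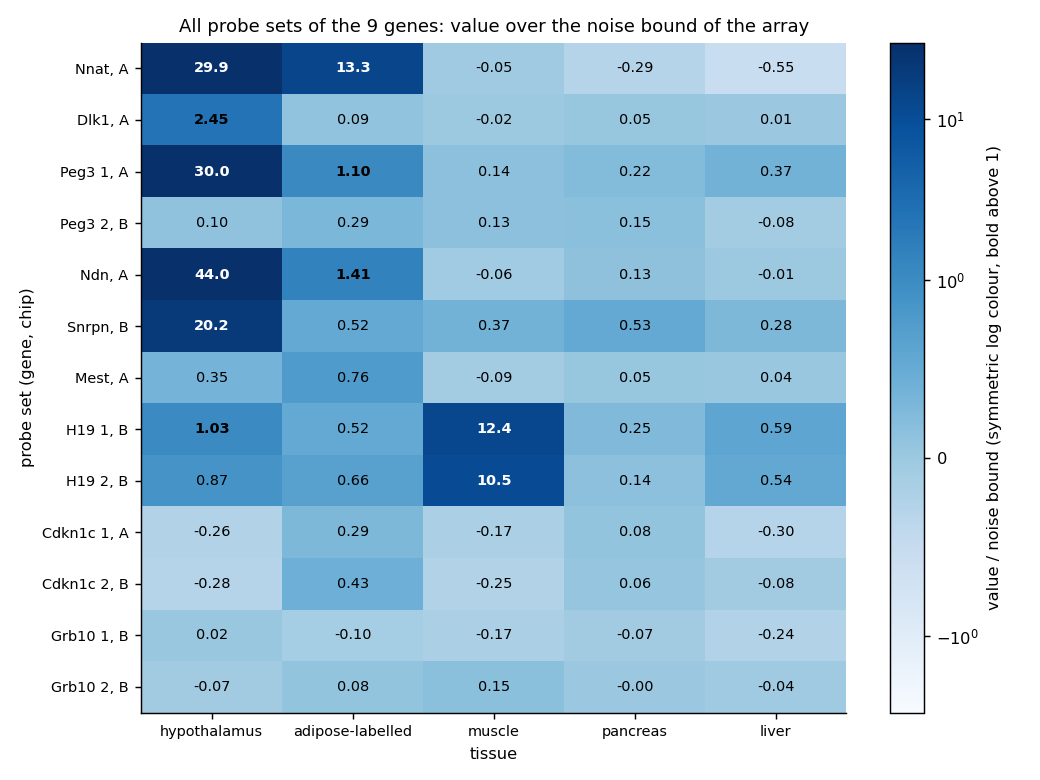
Ratio of the value of each of the 13 probe sets (rows) to its array's noise bound in each tissue (columns), in bold above 1, on a symmetric log colour scale. The ratio shows detection and not level, since the bounds differ between arrays, and it reaches 44.0 for Ndn in hypothalamus and 12.4 for H19 in muscle.

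Ndn encodes necdin, a protein of the MAGE family that restrains the growth of neurons, and lies in the region lost in Prader-Willi syndrome. Its single probe set read 11358 in hypothalamus, 549.6 in adipose, -67.1 in muscle, 146 in pancreas and -1.996 in liver. Hypothalamus was 20.7-fold above adipose, at least 38.5-fold above liver, at least 10.7-fold above muscle and at least 9.74-fold above pancreas. Adipose passed its own bound of 390.1 by 1.41 times and was at least 1.86-fold above liver.

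Peg3 encodes a large zinc finger protein that binds DNA. Its chip A probe set read 7756 in hypothalamus, 429.1 in adipose, 148 in muscle, 257 in pancreas and 109.8 in liver. Hypothalamus was 18.1-fold above adipose, at least 26.3-fold above liver, at least 7.28-fold above muscle and at least 6.65-fold above pancreas. Adipose was 1.10 times its bound. The second Peg3 probe set, on chip B, read 64.5 in hypothalamus, 268 in adipose, 215 in muscle, 399.8 in pancreas and -63.8 in liver, so it was above its bound nowhere and the 2 probe sets disagree. Levels of different probe sets are not comparable, and which of the 2 is right was not tested.

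Snrpn encodes SmN, a core protein of the spliceosome that replaces its close relative SmB in brain. Its probe set read 13113 in hypothalamus, 482 in adipose, 612 in muscle, 1389.7 in pancreas and 221 in liver, and only hypothalamus was above its bound. Hypothalamus was at least 5.03-fold above pancreas, at least 14.3-fold above adipose, at least 7.998-fold above muscle and at least 16.6-fold above liver. The bound of the pancreas array sets the smallest of these, and without the pancreas arrays the fold over the other tissues was at least 7.998.

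Nnat encodes neuronatin, a small membrane protein of the endoplasmic reticulum, known in developing brain, in pancreatic islets and in adipose tissue. Its probe set read 7707 in hypothalamus, 5202 in adipose, -48.1 in muscle, -340.2 in pancreas and -163 in liver. Both hypothalamus and adipose were thus far above every other tissue, and the other 3 tissues were below 0. Hypothalamus was 1.48-fold above adipose, a log2 difference of 0.57 that was not tested. The SDs of 0.30 and 0.33 between the chips in those tissues are spreads over probe sets within 1 tissue. They do not give the error of a difference between tissues. Adipose was at least 17.6-fold above liver, at least 4.88-fold above muscle and at least 4.46-fold above pancreas. Nnat was therefore not called for hypothalamus, but it was when the adipose arrays were left out, at least 6.61-fold over pancreas.

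Dlk1 encodes a transmembrane protein of the Notch ligand family that holds back adipocyte formation and marks preadipocytes. Its probe set read 634 in hypothalamus, 36.2 in adipose, -19.0 in muscle, 61.0 in pancreas and 1.996 in liver. Hypothalamus was 2.45 times its bound and at least 1.62-fold above adipose and at least 2.15-fold above liver. No fold over muscle or pancreas can be given, since their bounds of 1065 and 1166 exceed the hypothalamic value.

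Adipose thus held 67.5% of the hypothalamic intensity for Nnat, but 5.53% for Peg3 and 4.84% for Ndn. The brain cell markers gave these shares. The summed neuron markers in adipose were 2.90% of the hypothalamic sum (1899.6 against 65442, with values below 0 counted as 0), the neuropeptides 1.75% and the glial markers 9.99%. Of the neuron markers only Stmn3 passed its bound in adipose, at 852 by 1 of 2 probe sets, against 13021 in hypothalamus, and it also passed in muscle, pancreas and liver. None of 5 neuropeptides and none of 8 glial markers did. Fewer cells of a type and less RNA per cell cannot be told apart in such bulk samples.

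**Figure D3:**
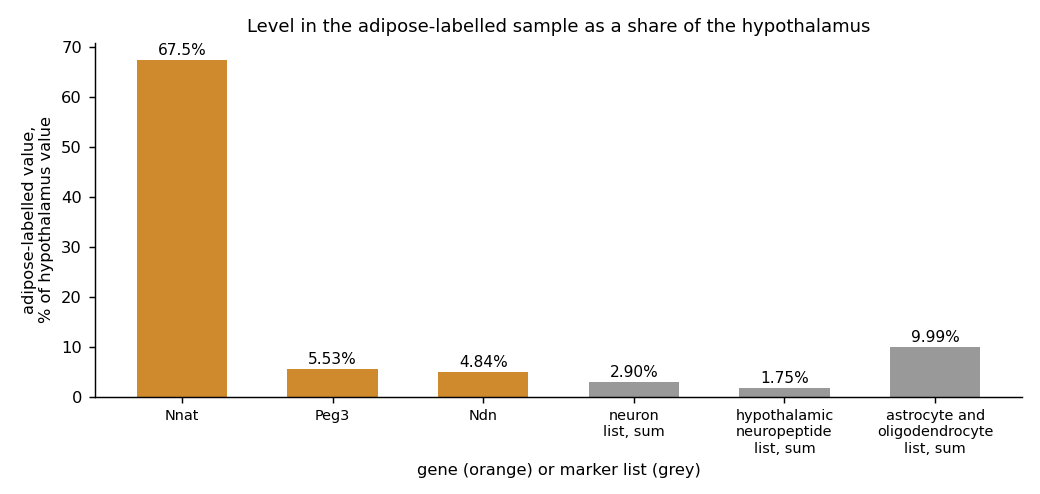
Adipose intensity as a percent of hypothalamic intensity (y axis) for Nnat, Peg3 and Ndn (orange bars) and for the summed neuron, neuropeptide and glial markers (grey bars). Nnat stands at 67.5%, the others at 9.99% or lower. Apart from Stmn3, the adipose values summed in the grey bars lie below the noise bound.

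H19 is a long noncoding RNA that carries a microRNA and is abundant in fetal muscle and liver. Its first probe set read 20294 in muscle, against 668 in hypothalamus, 481 in adipose, 656 in pancreas and 466 in liver. The second read 17207 in muscle, against 567 in hypothalamus, 607 in adipose, 362 in pancreas and 428 in liver. Muscle stood alone in both, and its values were 12.4 and 10.5 times the bound. Muscle was 30.4-fold above hypothalamus by the first probe set, where 668 just exceeded the bound of 649.5, and at least 26.5-fold by the second, where 567 did not. Muscle was at least 22.1- and 18.7-fold above adipose, at least 25.6- and 21.7-fold above liver, and at least 7.78- and 6.60-fold above pancreas. Without the pancreas arrays, the smallest folds were at least 22.1 and 18.7. Both probe sets bear a suffix that Affymetrix used for families of similar sequences, and leaving out such designs leaves H19 without a value.

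Mest, an alpha/beta hydrolase-like enzyme known from mesoderm, read 91.5 in hypothalamus, 298 in adipose, -91.2 in muscle, 53.0 in pancreas and 11.0 in liver. The adipose value was 0.765 of its bound, the nearest that any undetected probe set came. Cdkn1c, an inhibitor of cyclin-dependent kinases, read -67.6, 113, -185, 96.1 and -89.8 in hypothalamus, adipose, muscle, pancreas and liver on chip A, and -185, 393, -413, 166 and -61.8 on chip B. Grb10, an adaptor that dampens insulin and growth factor receptors, read 13.9, -93.4, -278, -191 and -193 in the same order by one probe set, and -44.7, 70.3, 249, -4.01 and -27.9 by the other. Of the 30 values of the 6 probe sets above no bound, including the second Peg3 probe set, 15 were below 0 and the highest was 399.8. These genes were not detectable at bounds of 258.2 to 2608, which does not show that they are absent.

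Cover of the neighbouring genes was uneven. No gene of the Dlk1-Meg3, Mest, Nnat or Grb10 domains other than those named above was measured, and 1 was in each of the Snrpn-Ndn and Peg3 domains. Those 2, Mkrn3 and Usp29, were above the bound in no tissue; they are named as the only measured neighbours, after their values were seen. Mkrn3 read -14.9 in hypothalamus and Usp29 read 25.9. Igf2, the paternally read growth factor gene beside H19, read 2142 in muscle, 923 in hypothalamus, 951 in adipose, 1225 in pancreas and 84.8 in liver. Muscle was 1.75-fold above pancreas, below the 4-fold set for a call, by a probe set of the family design. Slc22a18, a membrane transporter gene beside Cdkn1c, read 3139 in liver and at most 216 elsewhere, at least 2.69-fold above the bound of pancreas, by 1 of its 2 probe sets, while the second read 665 in liver. Kcnq1, a potassium channel gene adjacent to Cdkn1c and also named after its value was seen, was above the bound in no tissue and read at most 501, in pancreas. Of the 12 other genes listed for the domain of Cdkn1c, 9 were measured, and 4 were above the bound in hypothalamus, 3 in adipose, 4 in muscle, 3 in pancreas and 4 in liver. A gene counts where any of its probe sets passes. Of all probe sets, 31.0%, 24.8%, 13.9%, 11.9% and 25.7% were above the bound in that order. On chip A alone, which holds all of these genes but Cd81, the shares were 41.1%, 32.9%, 16.6%, 15.5% and 35.0%. Cd81, a tetraspanin gene, and Nap1l4, a histone chaperone gene, were above it in all 5 tissues, Osbpl5 in all but liver, and Th, which encodes tyrosine hydroxylase, in hypothalamus and muscle, so these were detected where Cdkn1c was not.

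Of 72 other imprinted genes listed, some of them imprinted only in placenta or single tissues, 28 were measured. Above the bound were 12 in hypothalamus, 9 in adipose, 8 in muscle, 8 in pancreas and 11 in liver of the 28, and over all probe sets the shares in that order are the 31.0%, 24.8%, 13.9%, 11.9% and 25.7% given above. Most probe sets of these genes are on chip A, where the shares were 41.1%, 32.9%, 16.6%, 15.5% and 35.0%. On chip B they were 20.9%, 16.8%, 11.2%, 8.36% and 16.4%. A gene counts where any of its probe sets passes, so the counts of genes and the shares of probe sets are not the same measure. Above the bound in all 5 tissues were 5 of the genes, and 10 were above it in none. Those in all 5 were Gnas, which encodes the stimulatory G protein alpha subunit, Nap1l4, Cd81, Dcn and Axl. Ins2, one of the insulin genes, was the only one called, at 16498 in pancreas, at least 10.1-fold above the highest other bound; a second Ins2 probe set read 1478 there, below its bound of 2608. Rasgrf1, an exchange factor for Ras, was above the bound in hypothalamus alone, with 3027 and 6282 in hypothalamus by its 2 probe sets. Its folds were at least 2.60 and 2.41. Gnas was highest in muscle by all 3 of its probe sets, at 27422, 25179.8 and 31169.6. All 3, and both of Rasgrf1, are of the family design. The median difference of the list from the mean of the other tissues was -0.05 in hypothalamus and -0.46 in liver on the log2 scale, and 0 in the others, beside -0.01 and -0.14 over all named probe sets in hypothalamus and liver.

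**Figure D4:**
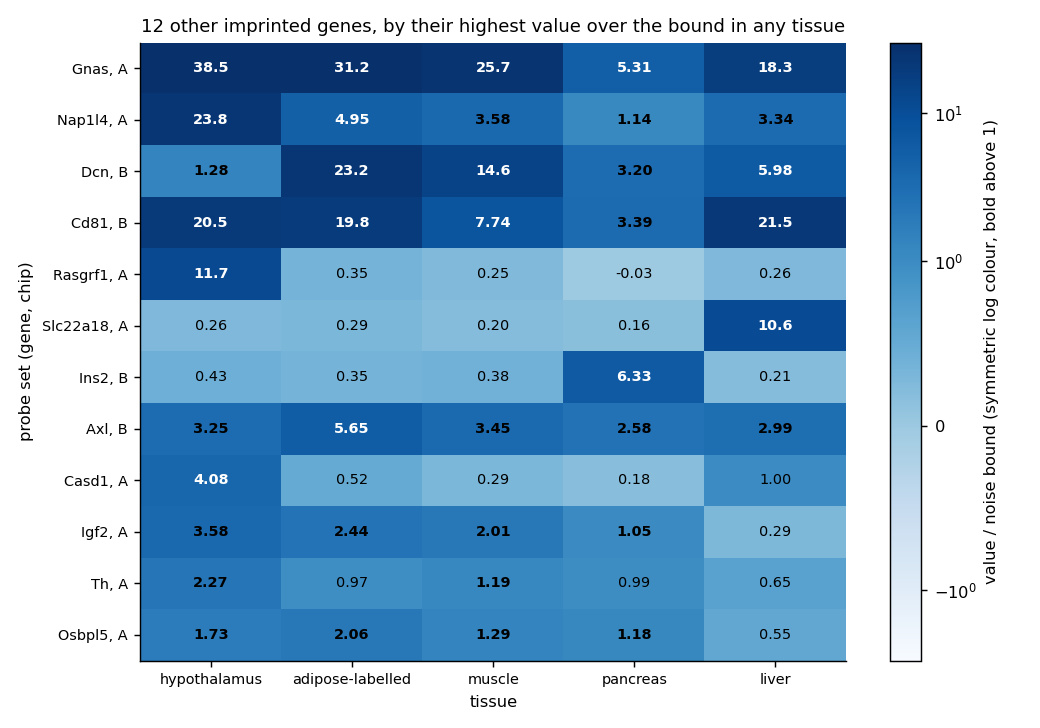
The 12 other imprinted genes (rows, 1 probe set each) with the highest value over the noise bound in any tissue, as that ratio in each tissue (columns), in bold above 1, on a symmetric log colour scale. Gnas, Nap1l4, Cd81, Dcn and Axl pass the bound in all 5 tissues, and Rasgrf1 and Casd1 pass it in hypothalamus alone, with Casd1 at the bound in liver.

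Relatives of Snrpn, Ndn and Grb10 were looked at next. Snrpb, which encodes SmB and is the close relative of Snrpn, read 10721 in muscle, against 2612 in hypothalamus, 3468 in adipose, 1662 in pancreas and 3783 in liver, so it was above the bound everywhere and 2.83-fold higher in muscle than in liver. A second, family-design Snrpb probe set read 742 in muscle, below its bound. Of 8 genes measured for Sm and related proteins of the small nuclear ribonucleoproteins, 6 were above the bound in hypothalamus, 3 in adipose, 2 in muscle, 1 in pancreas and 3 in liver, where 31.0%, 24.8%, 13.9%, 11.9% and 25.7% of all probe sets were. Both measured MAGE relatives of Ndn were above the bound in hypothalamus. Maged2 read 4179.8 in hypothalamus, 1962 in adipose, 138 in muscle, 502 in pancreas and 135 in liver, at least 1.60-fold above the highest other value or bound. Mageh1 read 765 in hypothalamus, above its bound, and 189.9 in adipose, 6.01 in muscle, 333 in pancreas and 113 in liver, all below theirs. No order over muscle and pancreas can be given for Mageh1, since their bounds of 1065 and 1166 exceed its hypothalamic value. Neither was called. Grb7, a relative of Grb10, was above the bound in liver by both probe sets, at 1517 and 895.

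**Figure D5:**
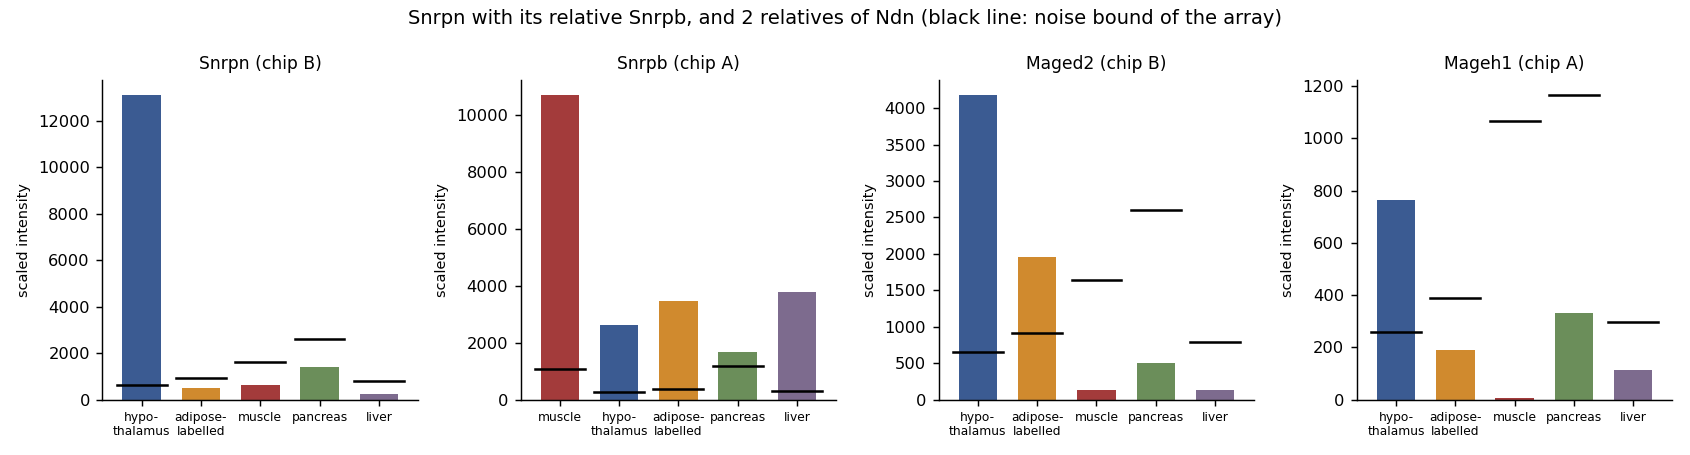
Scaled intensity (y axis, arbitrary units) of Snrpn, its relative Snrpb and the Ndn relatives Maged2 and Mageh1; a bar is 1 array and a black line its noise bound. Snrpb is highest in muscle and Snrpn and Maged2 in hypothalamus, while Mageh1 passes its line in hypothalamus but stays under the lines of muscle and pancreas there.

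The genes on the same chip nearest in pattern to each member were found from the root mean square difference of log2 values over the 5 tissues, with values floored at 174.8 on chip A and 122.5 on chip B and centred on each gene's mean. Compared were probe sets with 1 gene, other than the member, that were above the bound in the member's highest tissue. Peg3 and Ndn were each other's nearest, at 0.38, among 2417 such probe sets of chip A for hypothalamus. Next to Peg3 came Spock2 (0.43) and Aplp1 (0.48), and next to Ndn came Slc22a17 (0.39) and Ckb (0.53). For Snrpn, among 557 such probe sets of chip B, the nearest were Tubb3 (0.46), Camk2b (0.46) and Aplp1 (0.55). For Nnat, Tmsb10 was nearest at 0.76, then Slc22a17 at 1.001 and Ssbp4 at 1.03. For H19, among 343 such probe sets of chip B for muscle, Fmod was nearest by both probe sets, at 0.47 and 0.49. Dlk1 was within 0.02 of Tiam1, Fnbp1 and Nop56, a tie made by the floor, since 4 of its 5 values lie at it. With the bound as the floor, 2 of the 21 nearest genes were the same, so the list rests on that choice.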

How the data were processed

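Expression was measured on 10 Affymetrix arrays, 1 for each of 5 tissues on each of 2 chips. The authors deposited linear intensities, 1 per probe set; many lie below 0, so a signal had been subtracted, and the arrays had been brought to a common level. Which software made them is not given here. The 2% trimmed means of the arrays, controls left out, lay between 491 and 499. Total RNA was extracted with Trizol and labelled as biotin cRNA, per the labels' protocols. Here 61 control probe sets per chip were left out, except in the repeat between the chips. Each array was scaled to the common trimmed mean of its chip (2% cut at each end), and the noise bound was the size of the array's 1st percentile. Gene symbols came from a platform annotation: chip A has 5541 probe sets with 1 gene, 197 with several and 785 with none, and chip B has 2001, 27 and 4506. The members, lists and rules were chosen with earlier results of these data known. Named were every member, the 3 genes nearest in pattern, and 2 markers a list. Of the other imprinted genes and the relatives, at most 12 per group of lists were named, those with the highest value over the bound. Alternatives for the bound, the scaling, the fold and the tissues left out are in the closing section. Python 3.11.15, pandas 2.3.3, numpy 2.4.6 and matplotlib 3.10.9 were used.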

Additional observations from a re-analysis of the deposited data

How the results depend on the processing

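There are no replicates, so no replicate could be left out, and no paired analysis was possible because each tissue has 1 array a chip. The highest tissue of all 7 detected probe sets was the same under the arrays as deposited, 75th percentile scaling and quantile normalization. Of the adipose probe sets, 1 of the 3 stayed above the bound with the 0.5th percentile as the bound and 1 with the highest bound of the chip, so the adipose values of Peg3 and Ndn rest on the bound. In hypothalamus the count of 6 became 5 and 4 under those bounds; Dlk1 and H19 were not above the highest bounds of their chips. Without relaxed and family designs, 0 probe sets were above the bound or called in muscle, since both of H19 are of that kind. With the 0.5th percentile as the bound, 5 other imprinted genes were above it in pancreas and 7 in liver, against 8 and 11 with the main bound. The share of all probe sets above that stricter bound was not taken, so the drop is not particular to these genes. Quantile normalization gives all arrays of a chip the same bound, and the folds over the highest other value or bound rose under it. They were 15.5 for Peg3, 44.1 for Ndn, 19.7 for Snrpn, and 11.97 and 10.8 for H19. In the same order the main folds were at least 6.65, 9.74, 5.03, 7.78 and 6.60, all set by the pancreas bound. With 75th percentile scaling the fold was 8.25 for Snrpn. The removal of the adipose arrays was chosen after seeing the data; it made Nnat a 4th call for hypothalamus. The bounds limit what can be seen: a probe set in pancreas has to exceed 1166 on chip A and 2608 on chip B.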

Other observations

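Cdkn2c, an inhibitor of cyclin-dependent kinases and a relative of Cdkn1c by function, read 7061 in adipose, against 263 in hypothalamus, 957 in muscle, 719.5 in pancreas and 931 in liver. It was called for adipose, at least 6.05-fold above the highest other value or bound. Of 5 such inhibitors measured, 3 were above the bound in hypothalamus, 2 in adipose, 2 in liver, and none in muscle or pancreas. Notch2, a receptor of the pathway to which Dlk1 belongs, was called for adipose by 1 of its 4 probe sets, which read 7783 there and -60.7 in hypothalamus. A second read 2366 in adipose, and the other two were below the bound there. Of 8 Notch pathway genes measured, 3 were above the bound in adipose, 2 in hypothalamus and 2 in liver. Of 13 genes of Igf and insulin signalling measured, the pathway that Grb10 dampens, 9 were above the bound in liver, 5 in adipose, 3 in muscle, 2 in pancreas and 2 in hypothalamus, and none was called at 4-fold. Over all probe sets, 25.7% were above the bound in liver, 24.8% in adipose, 13.9% in muscle, 11.9% in pancreas and 31.0% in hypothalamus, and the counts of genes in these 3 lists are to be read against those shares.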
